A study of Saccharomyces cerevisiae with 4 samples.

Results

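The genes described here are those of the mitochondrial carrier proteins, the pyruvate carrier subunits and the porins of the budding yeast Saccharomyces cerevisiae. They were the 33 genes of a list drawn up by function, with earlier results of these data known. Each was matched by gene symbol to the annotation of the Affymetrix Yeast Genome S98 array, among 9275 probe sets that are not controls and 5656 named genes. All 33 were found. Each had 1 probe set, and all 33 probe sets had a plain _at name, the type designed to match a single transcript.

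One strain expressed Snf1-I132G, a form of the kinase Snf1 that the pyrazolopyrimidine 2NM-PP1 was meant to block, and the other expressed wild-type Snf1. Both strains were grown in SC-ura medium with 2% glucose, moved to 2% raffinose with 0.05% glucose for 120 min, after which 25 µM 2NM-PP1 was added for 40 min. There were 2 arrays per group, hybridised with RNA pooled from 3 transformants. Because every culture received 2NM-PP1, inhibition of the kinase and any effect of carrying the I132G allele cannot be told apart. Nothing in the labels says that the duplicate arrays came from separate cultures, so the p-values describe no more than array-to-array spread, part or all of which may be technical.

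Mitochondrial carriers are proteins of the inner membrane that exchange metabolites between the cytosol and the matrix, usually one compound for another. Porins are channels of the outer membrane that let small metabolites through, and the pyruvate carrier is a separate small complex of the inner membrane. Snf1, the yeast AMP-activated protein kinase, is needed to derepress genes of respiration and of growth on nonfermentable carbon when glucose is short. Several carriers have close relatives that are known to be used under different growth conditions.

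Carrier genes moved strongly and in both directions. As the list was drawn up with earlier results of these data known, the counts and shares are a description. Of the 33 genes, 8 rose and 9 fell in Snf1-I132G cells at an adjusted p under 0.05 (limma's moderated test, Benjamini-Hochberg adjustment over all 6956 tested probe sets), and 16 did not pass. All 33 had passed the filter on dim probe sets, so none was left out, though SFC1 passed it through its Snf1 signals alone. With Snf1 replicate 1 left out 7 rose and 5 fell, and with Snf1 replicate 2 left out 6 rose and 5 fell. The called share was 51.5% of the carrier genes, against 27.8% of all tested probe sets. By direction it was 24.2% higher, against 10.3% of all tested probe sets, and 27.3% lower, against 17.5%. The share over all probe sets depended on the filter on dim ones. It was 18.1% without a filter and 34.5% with a filter at the 50th percentile, where 7 of 29 carrier genes rose and 8 fell. The median log2 difference was -0.04 over the 33 genes and -0.10 over all tested probe sets, while the median size of the difference, regardless of sign, was 0.92 and 0.42. Differences are Snf1-I132G minus Snf1 on the scale log2(signal + 16), where signal is the deposited MAS5 array signal, and each carries a standard error (SE) from the fit. As bulk RNA was measured, fewer cells with a transcript and less transcript per cell cannot be told apart.

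The median signal of the arrays was 131.9 and 139 in Snf1-I132G cells, against 152 and 161 in Snf1 cells, and the trimmed mean was 500 to 501 on all of them. Across tested probe sets the log2 signals of the duplicates correlated at r = 0.976 in Snf1-I132G and 0.981 in Snf1, and at 0.900 to 0.920 between the groups, where probe sets are not independent replicates. The split into rises and falls depended on how the arrays were scaled. The median over all tested probe sets was 0.02 after quantile normalization, 0.09 after centring on the median and -0.31 after centring on hybridization controls. None of the 17 called carrier genes changed direction under these scalings. The number of arrays limits the precision of every value.

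**Figure D1:**
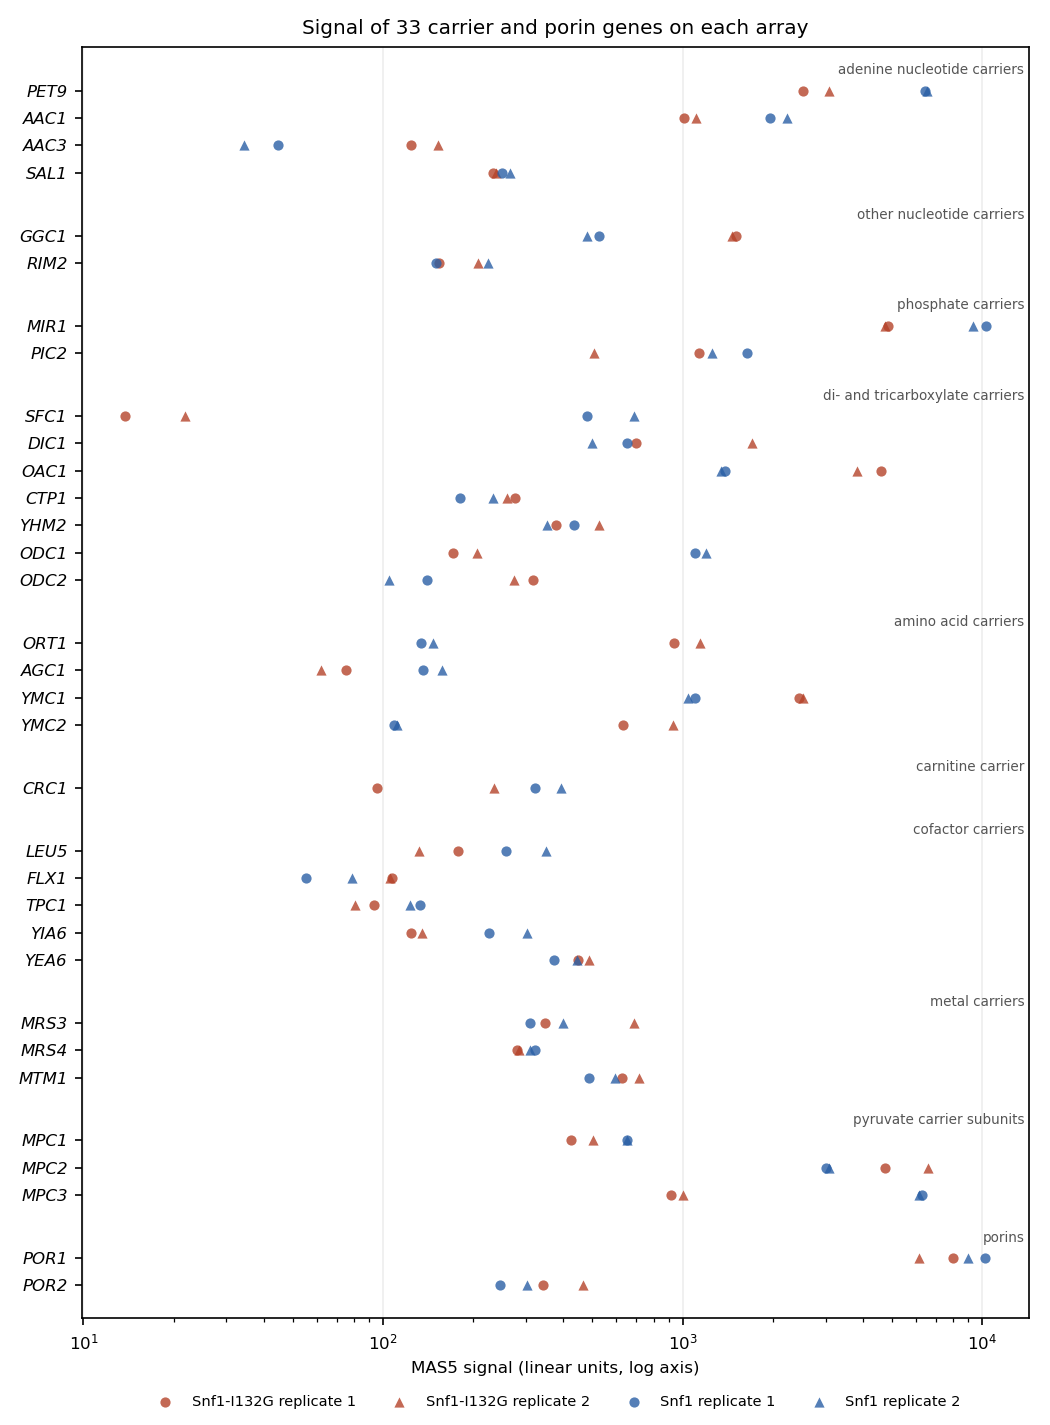
MAS5 signal of each of the 33 genes (rows, grouped by the compound carried) on each array, on a log axis; red symbols are Snf1-I132G arrays and blue symbols Snf1 arrays, with circles for replicate 1 and triangles for replicate 2. The groups were apart on all 4 arrays for 30 genes and overlapped for RIM2, YHM2 and MRS3.

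The groups did not overlap for 30 of the 33 genes, against 67.1% of all tested probe sets. They were 14 higher genes, against 26.2% of all tested probe sets, and 16 lower ones, against 41.0%. Of these 30 genes, 13 did not pass the test. In the same-numbered arrays of the groups, 31 genes differed in the same direction in both pairs, against 83.7% of all tested probe sets, and the exceptions were RIM2 and YHM2. With the replicate number as a block, 11 genes were higher, against 19.5% of probe sets, and 14 lower, against 28.6% (48.0% in either direction), and these 25 included all 17 called without it.

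The ADP/ATP carriers, which bring ADP into the matrix and take ATP out, split by isoform. PET9 (YBL030C), the main ADP/ATP carrier of aerobic cells, had signals of 2516 and 3082 on the Snf1-I132G arrays, against 6466 and 6539 on the Snf1 arrays. Both Snf1-I132G arrays were clearly below both Snf1 arrays, and PET9 fell, with a log2 difference of -1.22 ± 0.17 (SE; limma, adjusted p = 0.0071). AAC1 (YMR056C), a minor isoform of aerobic cells, had signals of 1010 and 1112 in Snf1-I132G, against 1953 and 2238 in Snf1. It also fell, at -0.97 ± 0.16 (limma, adjusted p = 0.011), though without Snf1 replicate 2 it was at -0.87 and did not pass (adjusted p = 0.072). AAC3 (YBR085W), the isoform known from cells short of oxygen, went the other way. Its signals were 124 and 153 in Snf1-I132G, against 44.7 and 34.4 in Snf1. AAC3 rose by 1.48 ± 0.21 (limma, adjusted p = 0.0075), a change that was 0.97 with a pseudocount of 64. SAL1 (YNL083W), a calcium-binding carrier of ATP-Mg and phosphate, had signals of 233 and 239 in Snf1-I132G and 250 and 265 in Snf1. SAL1 was at -0.12 (95% interval -0.51 to 0.28) and did not pass.

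Among the other nucleotide carriers, GGC1 (YDL198C), which exchanges GTP for GDP and is needed to keep mitochondrial DNA and iron balance, was markedly higher. GGC1 signals were 1503 and 1465 in Snf1-I132G, against 525 and 479 in Snf1, a rise of 1.53 ± 0.15 (limma, adjusted p = 0.0034). The duplicates of each group lay close together and far from the other group. RIM2 (YBR192W), the carrier of pyrimidine nucleotides, had signals of 153 and 207 in Snf1-I132G and 150 and 224 in Snf1, and its groups overlapped (difference -0.04, 95% interval -0.67 to 0.60).

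Both phosphate carrier genes had lower signals in Snf1-I132G cells, and one of them passed. MIR1 (YJR077C), the main phosphate carrier that feeds ATP synthesis, had signals of 4855 and 4757 in Snf1-I132G, against 10297 and 9339 in Snf1. MIR1 fell by 1.03 on the log2 scale (SE 0.15; limma, adjusted p = 0.0086), or by 0.96 without Snf1 replicate 1, where it did not pass (adjusted p = 0.063). The Snf1-I132G arrays agreed closely with each other here. PIC2 (YER053C), a phosphate carrier that also takes copper into the matrix, was uneven among the Snf1-I132G arrays, at 1133 and 505, against 1637 and 1250 on the Snf1 arrays. PIC2 was at -0.90 ± 0.39 and did not pass (limma, adjusted p = 0.14). It did with the replicate block (adjusted p = 0.0032) and, at -1.47, without Snf1-I132G replicate 1 (adjusted p = 0.020). Without Snf1-I132G replicate 2 it was at -0.33 (adjusted p = 0.35).

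The di- and tricarboxylate carriers held the largest fall among the 33 genes. SFC1 (YJR095W), which exchanges cytosolic succinate for fumarate and is needed for growth on ethanol or acetate, had signals of 13.8 and 21.9 in Snf1-I132G, against 481 and 690 in Snf1. The Snf1-I132G signals lay below the 25th percentile of their arrays, which was 32.0 and 31.8, so the size of the fall rests on the pseudocount. SFC1 was at -4.14 ± 0.25 (limma, adjusted p = 0.0015). It was at -4.97 with a pseudocount of 1 and at -2.97 with one of 64, and passed with both. ODC1 (YPL134C), a carrier of 2-oxoglutarate and related oxodicarboxylates, had signals of 172 and 206 in Snf1-I132G, against 1098 and 1199 in Snf1. ODC1 fell by 2.51 on the log2 scale (SE 0.17; limma, adjusted p = 0.0018), a level 5.71-fold lower in Snf1-I132G.

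Its relative ODC2 (YOR222W), which carries the same compounds, rose. ODC2 signals were 317 and 274 in Snf1-I132G, against 140 and 105 in Snf1, a difference of 1.18 ± 0.20 (limma, adjusted p = 0.013). Without Snf1 replicate 2 it was 0.99 and did not pass (adjusted p = 0.076). OAC1 (YKL120W) carries oxaloacetate and also the leucine precursor isopropylmalate. It had signals of 4603 and 3833 in Snf1-I132G, against 1385 and 1343 in Snf1, and rose by 1.61 ± 0.16 (limma, adjusted p = 0.0036). The lower of the Snf1-I132G arrays was still far above both Snf1 arrays.

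The other members of this class did not pass. DIC1 (YLR348C), which exchanges dicarboxylates for phosphate, was at 700 and 1706 in Snf1-I132G, against 653 and 498 in Snf1. One Snf1-I132G array was close to the Snf1 arrays and the other was far above them, and DIC1 did not pass, at 0.92 ± 0.42 (limma, adjusted p = 0.16). It was 0.29 without Snf1-I132G replicate 2. Without Snf1-I132G replicate 1 it was 1.56 and passed (adjusted p = 0.018), as it did with the replicate block (adjusted p = 0.035). The citrate carrier gene CTP1 (YBR291C) was at 277 and 259 in Snf1-I132G and 181 and 234 in Snf1, a difference of 0.36 (95% interval -0.12 to 0.83). YHM2 (YMR241W), which exchanges citrate for 2-oxoglutarate, was at 378 and 528 in Snf1-I132G and 434 and 354 in Snf1. Its groups overlapped, and the difference was 0.18 (95% interval -0.37 to 0.73).

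All 4 carriers grouped here by their amino acid cargo passed, 3 of them upward. ORT1 (YOR130C) exports ornithine from the matrix, the step that links the mitochondrial and cytosolic parts of arginine synthesis. Its signals were 937 and 1143 in Snf1-I132G, against 134 and 147 in Snf1. ORT1 had the largest rise of the 33 genes, 2.75 ± 0.18 (limma, adjusted p = 0.0016), which is 6.72-fold and ranks 6 among all tested probe sets. YMC2 (YBR104W), a carrier linked to glutamate import, followed with 632 and 926 in Snf1-I132G, against 109 and 111 in Snf1. YMC2 rose by 2.64 ± 0.22 (limma, adjusted p = 0.0026), and its relative YMC1 (YPR058W) rose by 1.20 ± 0.14 (limma, adjusted p = 0.0052). YMC1 signals were 2448 and 2523 in Snf1-I132G, against 1103 and 1045 in Snf1. For all 3 genes the duplicates lay much closer to each other than to the other group.

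AGC1 (YPR021C), a carrier of aspartate and glutamate, was the amino acid carrier gene that fell. Its signals were 75.3 and 62.0 in Snf1-I132G, against 136 and 158 in Snf1, a difference of -0.95 ± 0.19 (limma, adjusted p = 0.019). It missed the threshold without Snf1-I132G replicate 2, at -0.83 (adjusted p = 0.059). The same held without Snf1 replicate 1, at -1.04 (adjusted p = 0.068), and without Snf1 replicate 2, at -0.85 (adjusted p = 0.12). CRC1 (YOR100C), the carrier of carnitine and acetylcarnitine, was at 95.7 and 235 in Snf1-I132G, against 321 and 391 in Snf1. Both Snf1-I132G arrays were the lower ones, but they differed 2.45-fold from each other, and -1.15 ± 0.39 did not pass (limma, adjusted p = 0.082). CRC1 passed with the replicate block (limma, adjusted p = 0.0023) and, at -1.36, after centring on hybridization controls (limma, adjusted p = 0.034). It was at -1.73 without Snf1-I132G replicate 2 and at -0.56 without Snf1-I132G replicate 1.

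**Figure D2:**
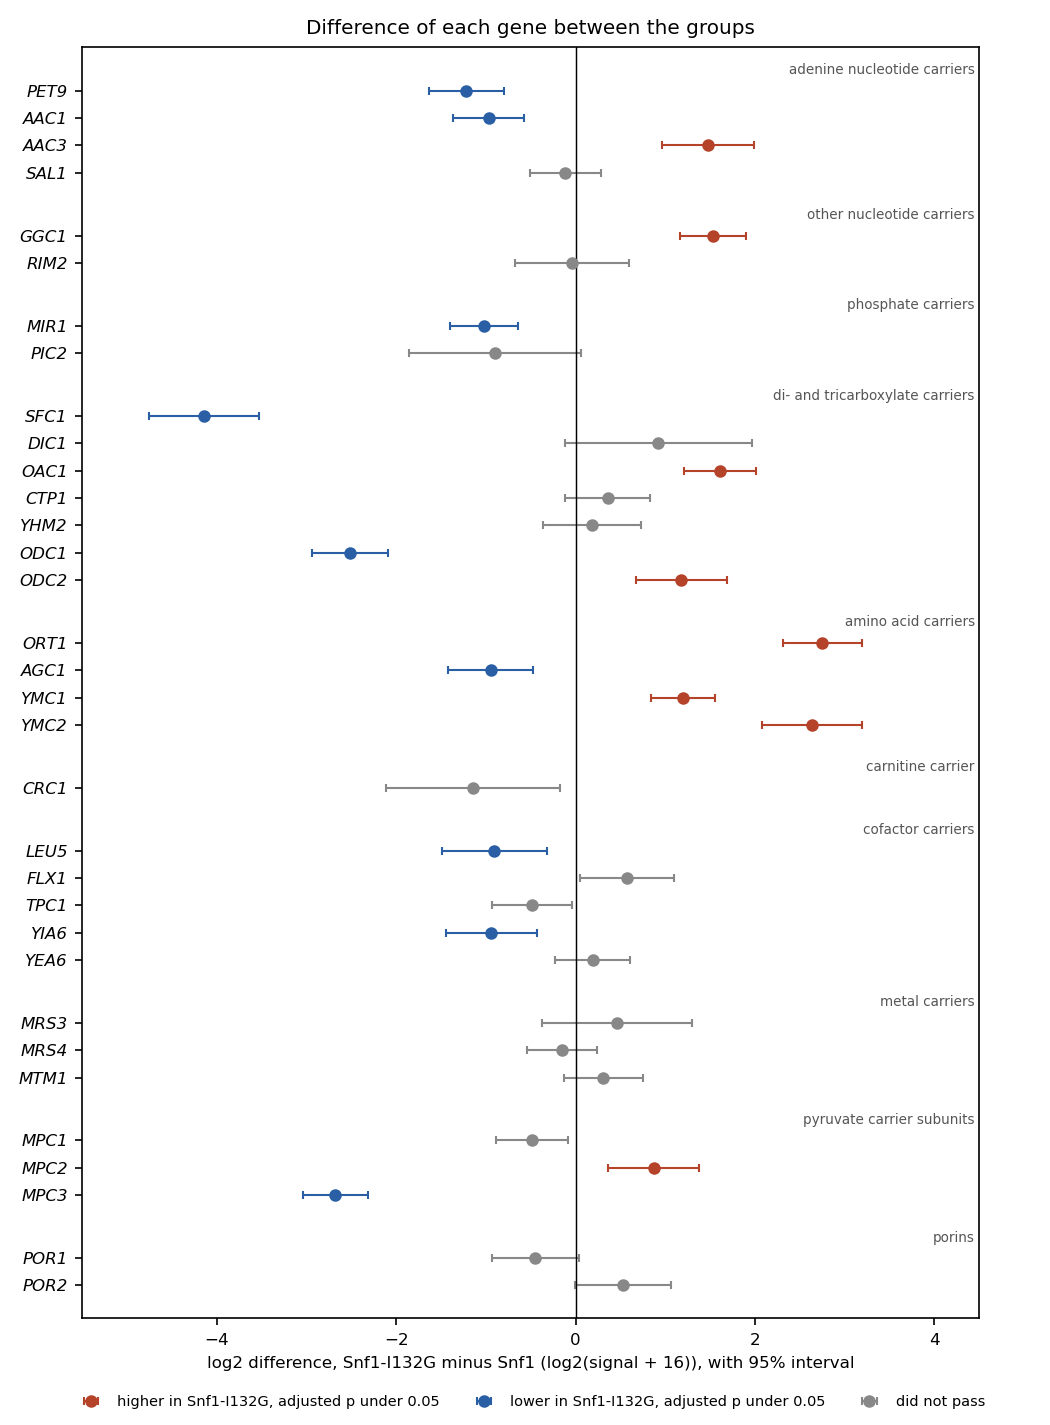
Log2 difference of each gene, Snf1-I132G minus Snf1, with its 95% interval from the fit (bars); red marks genes that rose, blue genes that fell and grey those that did not pass at an adjusted p under 0.05. SFC1, at -4.14, and ORT1, at 2.75, stand at the ends.

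Cofactor carrier genes had smaller differences, with 2 falls among 5. LEU5 (YHR002W), needed for coenzyme A in the matrix, had signals of 178 and 131.7 in Snf1-I132G, against 258 and 351 in Snf1. It fell by 0.91 on the log2 scale (SE 0.23; limma, adjusted p = 0.039). This call was lost under 6 of the 14 alternatives, among them without Snf1-I132G replicate 2 at -0.71 (adjusted p = 0.12). It was also lost without Snf1 replicate 1 at -1.12 (adjusted p = 0.063) and without Snf1 replicate 2 at -0.70 (adjusted p = 0.21). YIA6 (YIL006W), a carrier of NAD+, had signals of 124 and 135 in Snf1-I132G, against 227 and 303 in Snf1, and fell (difference -0.94 ± 0.20; limma, adjusted p = 0.023). The call for YIA6 was lost whichever of the 4 arrays was left out. It was at -0.88 without Snf1-I132G replicate 1 (adjusted p = 0.063), -0.99 without Snf1-I132G replicate 2 (0.052), -1.14 without Snf1 replicate 1 (0.051) and -0.74 without Snf1 replicate 2 (0.16).

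The second NAD+ carrier gene, YEA6 (YEL006W), was at 447 and 485 in Snf1-I132G and 373 and 443 in Snf1, a difference of 0.19 (95% interval -0.23 to 0.61). FLX1 (YIL134W), which serves FAD transport, was at 107 and 105 in Snf1-I132G, against 55.2 and 79.0 in Snf1. The thiamine pyrophosphate carrier gene TPC1 (YGR096W) was at 93.6 and 80.3 in Snf1-I132G, against 133 and 123 in Snf1. Neither FLX1, at 0.57 ± 0.21 (limma, adjusted p = 0.10), nor TPC1, at -0.48 ± 0.18 (limma, adjusted p = 0.10), passed. Both passed with the replicate block (adjusted p = 0.035 for FLX1 and 0.043 for TPC1). FLX1 also passed after quantile normalization or median centring, and TPC1 after centring on hybridization controls. Without Snf1 replicate 1 FLX1 was at 0.36.

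No gene of the metal carriers passed. MRS4 (YKR052C), an iron carrier, was at 281 and 284 in Snf1-I132G and 321 and 310 in Snf1, a difference of -0.15 (95% interval -0.54 to 0.24). MTM1 (YGR257C), needed to activate the manganese superoxide dismutase Sod2, was at 630 and 715 in Snf1-I132G and 488 and 594 in Snf1, at 0.31 (95% interval -0.13 to 0.75). MRS3 (YJL133W), the second iron carrier, was at 348 and 686 in Snf1-I132G and 309 and 398 in Snf1. The groups overlapped for MRS3, and at 0.46 ± 0.34 it did not pass (limma, adjusted p = 0.35). It was -0.01 without Snf1-I132G replicate 2 and 0.94 without Snf1-I132G replicate 1, where it passed (adjusted p = 0.047).

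Subunits of the pyruvate carrier moved in opposite directions. The carrier is built from Mpc1 with either Mpc2, the partner known from fermenting cells, or Mpc3, the partner known from respiring cells. MPC3 (YGR243W) had signals of 913 and 1002 in Snf1-I132G, against 6279 and 6143 in Snf1. It fell by 2.68 on the log2 scale (SE 0.15; limma, adjusted p = 0.0015), a level 6.40-fold lower in Snf1-I132G. MPC2 (YHR162W) had signals of 4725 and 6602 in Snf1-I132G, against 3006 and 3089 in Snf1, and rose by 0.87 ± 0.20 (limma, adjusted p = 0.029). This rise missed the threshold without Snf1-I132G replicate 2, at 0.63 (adjusted p = 0.064). It also missed without Snf1 replicate 1, at 0.85 (0.12), and without Snf1 replicate 2, at 0.89 (0.11). The scaling mattered too, as MPC2 was at 0.72 after quantile normalization (adjusted p = 0.059) and at 0.63 after centring on hybridization controls (0.070). MPC1 (YGL080W), the common subunit, was at 424 and 501 in Snf1-I132G, against 654 and 651 in Snf1. At -0.49 ± 0.16 it did not pass (limma, adjusted p = 0.078), but did with the replicate block (adjusted p = 0.018) and after centring on hybridization controls, at -0.72 (adjusted p = 0.026).

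Neither porin gene passed. POR1 (YNL055C), the main porin, was at 7986 and 6144 in Snf1-I132G, against 10229 and 8966 in Snf1, a difference of -0.45 ± 0.19 (limma, adjusted p = 0.14). POR2 (YIL114C), a minor relative, was at 343 and 467 in Snf1-I132G, against 246 and 303 in Snf1, at 0.53 ± 0.22 (limma, adjusted p = 0.13). In both cases the arrays of the groups were apart, POR1 lower and POR2 higher in Snf1-I132G, but the gap between the nearest arrays of the groups was smaller than that between the duplicates of either group. With the replicate block both passed (adjusted p = 0.016 for POR1 and 0.015 for POR2). After quantile normalization POR1 was at -0.77 (adjusted p = 0.0086) and POR2 at 0.70 (0.048), and median centring took POR2 to 0.72 (0.043). Without Snf1-I132G replicate 2 POR1 was at -0.26 and POR2 at 0.31.

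**Figure D3:**
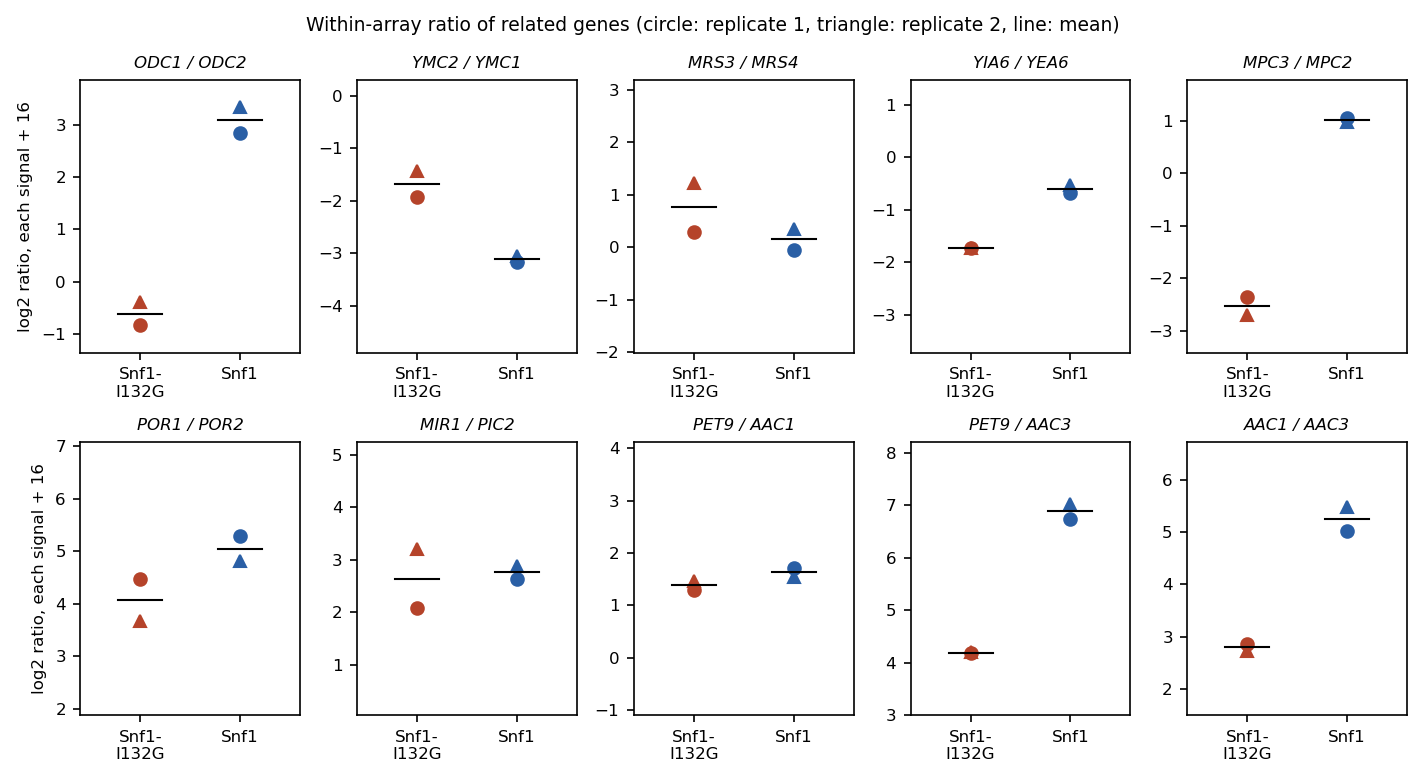
Log2 ratio of the signals of related genes on each array, with Snf1-I132G arrays in red on the left and Snf1 arrays in blue on the right of each panel; circles are replicate 1, triangles replicate 2 and lines the group means, and all panels span the same height. The ratios of ODC1 to ODC2 and of MPC3 to MPC2 shifted most, by -3.69 and -3.55.

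Related genes were set side by side within each array. These ratios include the pseudocount, so their changes still shift with it and with the scaling. The height of a ratio itself carries no meaning, because probe sets differ in brightness. With 2 arrays against 2 the exact permutation test (two-sided) cannot give a p below 0.33, so none of the 10 pairs compared can pass. The log2 ratio of ODC1 to ODC2 was -0.83 and -0.39 in Snf1-I132G, against 2.83 and 3.33 in Snf1, a change of -3.69 (exact permutation p = 0.33). The ODC1 signal relative to that of ODC2 was thus 12.9-fold lower in Snf1-I132G, and the change was -3.88 to -3.21 under other scalings and pseudocounts. MPC3 to MPC2 gave -2.35 and -2.70 in Snf1-I132G, against 1.06 and 0.99 in Snf1, a change of -3.55, or 11.7-fold lower (exact permutation p = 0.33).

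Among the ADP/ATP carriers, the log2 ratio of PET9 to AAC3 was 4.17 and 4.20 in Snf1-I132G, against 6.74 and 7.02 in Snf1, a change of -2.70. AAC1 to AAC3 changed by -2.45, while PET9 to AAC1, both of which fell, changed by -0.25 (exact permutation p = 0.33 for each of these ratios). Under other scalings and pseudocounts the change was -3.03 to -2.17 for PET9 to AAC3 and -2.77 to -1.91 for AAC1 to AAC3. PET9 to AAC1 was at -0.50 after quantile normalization, and at -0.16 without Snf1 replicate 1. YIA6 to YEA6 was at -1.73 on both Snf1-I132G arrays, against -0.68 and -0.52 in Snf1, a change of -1.13. YMC2 to YMC1 changed by 1.44, with YMC2 gaining, and POR1 to POR2 changed by -0.98 (exact permutation p = 0.33 for these 3 ratios). POR1 to POR2 was at -1.47 after quantile normalization and at -0.57 without Snf1-I132G replicate 2. The ratios of MRS3 to MRS4 and of MIR1 to PIC2 overlapped between the groups, with changes of 0.61 (exact permutation p = 0.667) and -0.12 (exact permutation p = 1). MIR1 to PIC2 was at -0.47 after quantile normalization, and with 1 array left out it ranged over -0.68 to 0.43. For PIC2 and MRS3 the Snf1-I132G duplicates were far apart, as given above.

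The duplicates of Snf1-I132G differed by over 1.5-fold for 5 of the 33 genes, and those of Snf1 for 0 of them. These 5 were CRC1 (2.45-fold), DIC1 (2.44-fold), PIC2 (2.24-fold), MRS3 (1.97-fold) and the dim SFC1 (1.59-fold). Over the 33 genes the median ratio of the higher to the lower duplicate was 1.20 in Snf1-I132G and 1.16 in Snf1, and over all tested probe sets it was 1.21 and 1.15. Of the 5 genes, SFC1 alone passed the test.

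**Figure D4:**
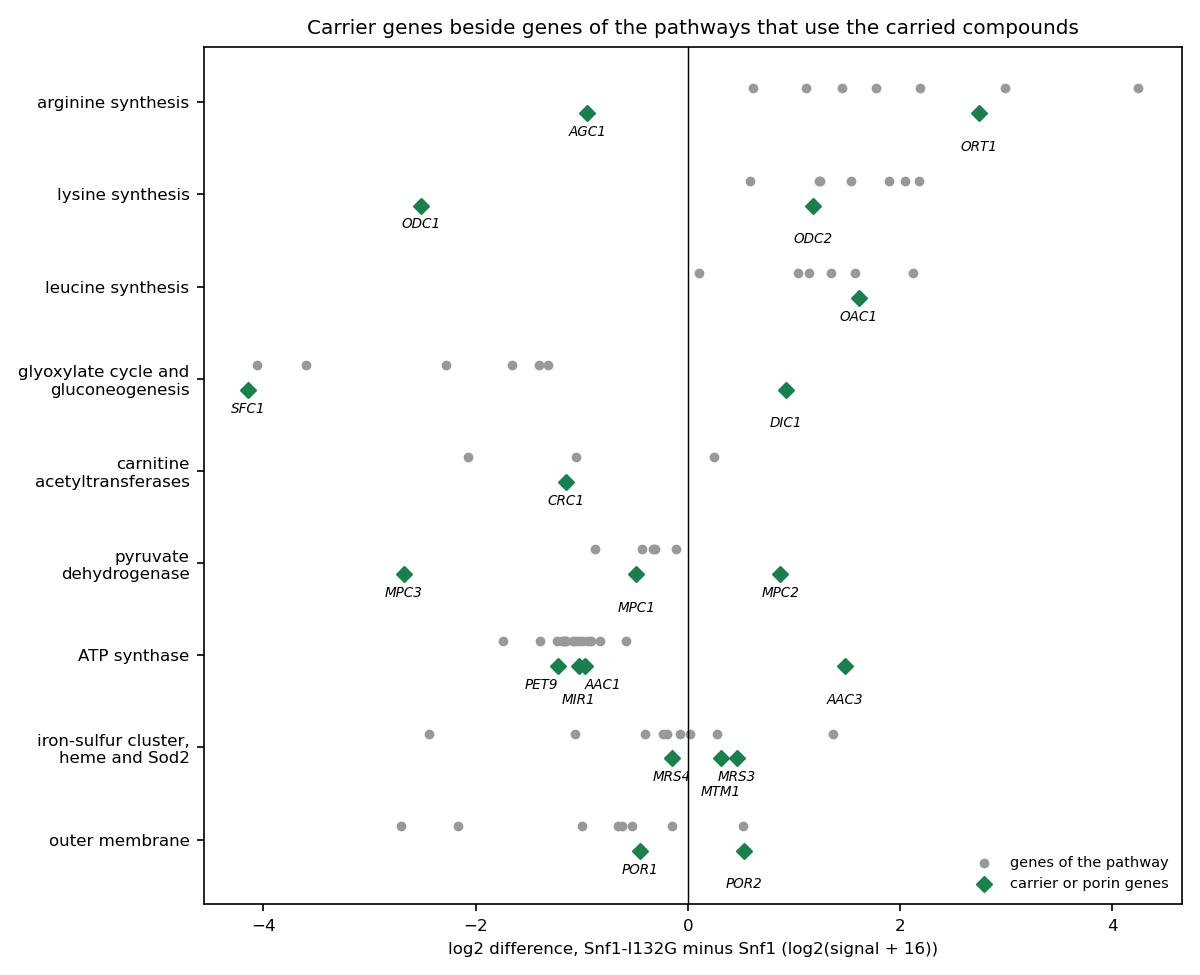
Log2 difference, Snf1-I132G minus Snf1, of carrier and porin genes (green diamonds, named) and of genes of the pathway, complex or membrane set beside them (grey dots), with a row per list. ORT1, ODC2 and OAC1 lie among the higher genes of amino acid synthesis, AGC1 and ODC1 lie at negative differences beside those genes, and SFC1 lies with the lower genes of gluconeogenesis.

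The carriers can be read beside lists of genes of linked pathways or complexes, and the porins beside other outer membrane genes. These lists were chosen by function with earlier results of the arrays known, so the counts are a description, to be read against the 10.3% of tested probe sets that were higher and the 17.5% that were lower. Of 7 tested arginine synthesis genes, 6 rose and 0 fell, with a median of 1.78. ORT1, at 2.75, went with them, and AGC1, at -0.95, did not. ARG1, for argininosuccinate synthase, was at 4.24 ± 0.19, and ARG3, which uses ornithine in the cytosol, at 2.99 ± 0.17 with a dim mean Snf1 signal of 30.0. ARG3 passed the filter through its Snf1-I132G signals alone. ARG7, which makes ornithine in the matrix, was at 2.19 ± 0.15 and ARG4, the last enzyme, at 1.78 ± 0.14 (limma, adjusted p at most 0.0025 for each of these 4 genes). Of 6 tested leucine synthesis genes, 4 rose, with a median of 1.25, alongside OAC1. LEU9, an isopropylmalate synthase gene, was at 2.12 ± 0.17 and the aminotransferase gene BAT1 at 1.58 ± 0.20 (limma, adjusted p = 0.0024 and 0.0061). Without Snf1 replicate 2 the leucine list had 2 rises.

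Lysine synthesis passes through oxodicarboxylates made in mitochondria, and 6 of 7 tested genes rose, with a median of 1.53. The homocitrate synthase genes LYS20 and LYS21 were at 2.18 ± 0.17 and 1.53 ± 0.15, and LYS2 and LYS1, which serve later steps in the cytosol, at 1.89 ± 0.15 and 2.05 ± 0.18 (limma, adjusted p at most 0.0033 for each). ODC2, at 1.18, went with them, and ODC1, at -2.51, did not.

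Of 6 tested genes of the glyoxylate cycle and gluconeogenesis, all 6 fell, with a median of -1.97, alongside SFC1. Like SFC1, FBP1 and MLS1 passed the filter on dim probe sets through their Snf1 signals alone. The mean Snf1-I132G signal of MLS1 was 27.1. Fewer fell under some alternatives: 5 after quantile normalization, after median centring or without Snf1 replicate 1, and 4 without Snf1 replicate 2, where MLS1 and ACS1 missed the threshold. PCK1, for phosphoenolpyruvate carboxykinase, was at -4.06 ± 0.19 and FBP1, for fructose bisphosphatase, at -3.60 ± 0.38 with a dim mean Snf1-I132G signal of 31.1 (limma, adjusted p = 0.0015 and 0.0040). The Snf1 signals of FBP1 were 367 and 831, a 2.27-fold difference between duplicates. FBP1 was at -4.17 without Snf1 replicate 1 and at -3.02 without Snf1 replicate 2. The malate dehydrogenase gene MDH2 was at -2.28 ± 0.31 and the isocitrate lyase gene ICL1 at -1.41 ± 0.21 (limma, adjusted p = 0.0071 and 0.0089). The Snf1-I132G duplicates differed 1.95-fold for MDH2 and 2.49-fold for ACS1. DIC1, also set beside this list, did not pass. Of the 3 carnitine acetyltransferase genes, CAT2 and YAT1 fell, at -1.05 ± 0.22 and -2.07 ± 0.52 (limma, adjusted p = 0.020 and 0.035). The third, YAT2, was at 0.24 ± 0.29 and did not pass. CAT2 missed the threshold without Snf1 replicate 1, at -1.06 (adjusted p = 0.082), and without Snf1 replicate 2 both CAT2, at -1.05 (0.089), and YAT1, at -1.82 (0.087), did. The Snf1-I132G signals of YAT1 were 299 and 935, a 3.12-fold difference between duplicates. YAT1 was at -1.27 without Snf1-I132G replicate 1 and at -2.87 without Snf1-I132G replicate 2, and passed in both cases (adjusted p = 0.032 and 0.0069).

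ATP synthase genes fell in 14 of 15 cases, with a median of -1.08, beside differences of -1.22 for PET9, -0.97 for AAC1 and -1.03 for MIR1. AAC3, at 1.48, went the other way. ATP16 was at -1.39 ± 0.15, ATP4 at -1.23 ± 0.15, TIM11, for a subunit that joins the enzyme into dimers, at -1.18 ± 0.15 and INH1, for an inhibitor of ATP hydrolysis by the enzyme, at -1.74 ± 0.19 (limma, adjusted p at most 0.0058 for each). Without either one of the Snf1 replicates 9 of the 15 fell. The pyruvate dehydrogenase genes, whose product uses what the pyruvate carrier brings in, moved less than MPC3. Of these 5 genes, 1 fell, LPD1 at -0.87 ± 0.18 (limma, adjusted p = 0.021), and the median was -0.33. The count depended on the scaling, with 3 falls after centring on hybridization controls and 0 after median centring. LPD1 missed the threshold without Snf1-I132G replicate 2, at -0.80 (adjusted p = 0.064), without Snf1 replicate 1, at -0.70 (0.13), and without Snf1 replicate 2, at -1.04 (0.0501).

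In the outer membrane, 4 of 8 tested genes other than porins fell, with a median of -0.64. The falls numbered 2 without Snf1-I132G replicate 2, without Snf1 replicate 1 or without Snf1 replicate 2. OM45 and OM14, which code for proteins found with porin, were at -2.70 ± 0.17 and -2.16 ± 0.16 (limma, adjusted p = 0.0016 and 0.0020), against -0.45 for POR1. Among 9 genes of mitochondrial iron-sulfur cluster and heme synthesis with SOD2, 1 rose, 1 fell and 7 did not pass, with a median of -0.20. ISU2, for a scaffold of cluster assembly, was at 1.37 ± 0.20, and SOD2, whose product Mtm1 helps to activate, at -2.44 ± 0.18 (limma, adjusted p = 0.0083 and 0.0019). The heme synthesis gene HEM15 was at -1.06 ± 0.33 and did not pass (limma, adjusted p = 0.064), but did with the replicate block (adjusted p = 0.00073). It was at -1.51 without Snf1-I132G replicate 1 and at -0.61 without Snf1-I132G replicate 2.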

How the data were processed

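The deposited table holds array signal intensities that are not logged, computed by MAS5 per the submitters' processing notes, and the values show every array scaled to a common trimmed mean. The platform annotation supplied gene symbols: 6504 probe sets had 1, 328 several and 2443 none given. The RefSeq table of assembly R64 was used for systematic names. Signals were taken as log2(signal + 16), a scale on which folds of dim genes are understated. The 60 controls were left out, as were probe sets whose mean signal was under the 25th percentile (35.0). The groups were tested with limma 3.58.1 in R 4.3.3 (lmFit, then eBayes with a trend on intensity), without covariates. There were 2 residual degrees of freedom, and the prior added 3.64. The fit was tested on simulated data.

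Members and lists were chosen with earlier results of these data known. All 33 members are named, and of each pathway list up to 4 genes with the smallest p. MLS1 and ACS1, and the further genes of the list of other carriers, were named after their values were seen. No sequence was used here, and the planned search of promoters for motifs was not run. Detection calls of the arrays were not used here.

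Same-numbered arrays of both groups carry a common string in their sample descriptions. It may mark a shared run, which is not certain. Their deviations from the group means correlated at r = 0.513 across probe sets. In an alternative fit the replicate number was a block, with 1 residual degree of freedom and a prior of 7.61. Other alternatives were 3 scalings of the arrays, pseudocounts of 1 and 64, no filter or one at the 50th percentile, a variance model with no trend, a robust one, and leaving out each array. For the ratios of related genes the scalings, pseudocounts and left-out arrays were added after seeing the data. A group reduced to 1 array borrows its spread from the other.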

Additional observations from a re-analysis of the deposited data

How the results depend on the processing

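Of the 17 calls among the 33 genes, 10 held under all of the alternatives in which the gene was tested, namely AAC3, GGC1, OAC1, ORT1, YMC1 and YMC2 upward and PET9, SFC1, ODC1 and MPC3 downward. The other 7 (AAC1, MIR1, ODC2, AGC1, LEU5, YIA6 and MPC2) missed the threshold somewhere, and none of the 17 changed direction. With the replicate block 14 genes were lower, against 9 without it, and 11 were higher, against 8. Leaving out 1 array gave 6 to 10 higher and 5 to 9 lower genes, with 5 lower without Snf1 replicate 1 and 5 without Snf1 replicate 2. Fewer arrays were then compared, and of all probe sets 11.8% and 11.0% were called. The median over the 33 genes, -0.04, was 0.153 after quantile normalization, 0.150 with arrays centred on their medians and -0.26 with arrays centred on hybridization controls, and -0.13 to 0.16 with 1 array left out. Rises were 36.9% of all called probe sets. They were 47.5% after quantile normalization, 54.5% when arrays were centred on their medians and 19.3% when hybridization controls served for centring. Among the carrier genes rises were 47.1% of calls, and 50%, 55.6% and 36.8% under those scalings.

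Genes that did not pass and changed sign were SAL1 (0.053), RIM2 (0.153) and MRS4 (0.021) after quantile normalization. With median centring they were SAL1 (0.076), RIM2 (0.150) and MRS4 (0.043). YHM2 (-0.046) and YEA6 (-0.039) did so when centred on hybridization controls. With 1 array left out, RIM2 ranged over -0.30 to 0.23, YHM2 over -0.049 to 0.41 and MRS3 over -0.011 to 0.94. The cause of these changes was not tested. The lowest-signal probe set of a gene was not run as an alternative, since each of the 33 genes has 1. The ratio of MIR1 to PIC2 also changed sign, over -0.68 to 0.43 with 1 array left out. Between pseudocounts of 1 and 64 the difference of SFC1 went over -4.97 to -2.97, of AAC3 over 1.79 to 0.97, of AGC1 over -1.09 to -0.67 and of FLX1 over 0.68 to 0.38.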

Other observations

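The carrier family has further members outside the 33 genes, and 6 of them were found on the array. MRX20, whose cargo is not given here, had the one call among the 5 tested. Its mean signal was 184 in Snf1-I132G and 444 in Snf1, and it fell by 1.22 on the log2 scale (SE 0.21; limma, adjusted p = 0.012). Without Snf1 replicate 1 it was at -1.17 and did not pass (adjusted p = 0.060). PET8, the carrier of S-adenosylmethionine, was at -0.53 ± 0.25 and did not pass (limma, adjusted p = 0.17), but did with the replicate block (adjusted p = 0.042) and, at -0.83, without Snf1-I132G replicate 1 (adjusted p = 0.049). Without Snf1-I132G replicate 2 it was at -0.23 (adjusted p = 0.49). MME1, for a magnesium exporter, HEM25, for a glycine carrier of heme synthesis, and ANT1, for the peroxisomal ATP carrier, were at 0.26 ± 0.17, 0.26 ± 0.21 and -0.18 ± 0.17 and did not pass. UGO1, a carrier relative of the outer membrane that serves mitochondrial fusion, had mean signals of 7.29 in Snf1-I132G and 15.7 in Snf1 and was below the filter.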
